A study of Mus musculus with 17 samples.

Results

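The lacrimal gland makes the watery layer of tears, and its epithelium can be grown as organoids, hollow or solid epithelial clusters embedded in basement membrane extract (BME). The data described here are the 6 libraries of uncloned wild-type mouse lacrimal gland organoids, out of 17 libraries in the series, and the question is what moving organoids out of expansion medium (EM) does to their transcripts. Each of 3 organoid lines, numbered 6, 7 and 8 in the titles and carried as "Wildtype bulk 6", "Wildtype bulk 7" and "Wildtype bulk 8" in the genotype labels, was sequenced once from EM and once from differentiation medium (DM). The EM cultures spent 7 days in EM. The DM cultures spent 2 days in EM and then 5 days in DM, so both media were read at the same total age and the DM cultures had shared the first days in EM. The sources used here do not give the composition of the media or the strain, age and sex of the mice. The labels do not say that the lines came from separate animals, so the p-values below measure the spread between these samples only. Libraries of gland tissue (n = 3) serve as a reference and also entered the fit that gave the p-values of the uncloned lines. Organoid clones serve as a further reference: clones of wild type (WT) and clones labelled Pax6-KO, 2 of either kind, with 1 library per clone in EM and 1 in DM.

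As background, expansion media for epithelial organoids keep progenitor cells dividing, and differentiation media remove or replace some of those signals. The adult lacrimal gland epithelium holds secretory acinar cells, duct cells, and contractile myoepithelial cells that squeeze the acini, the last sharing keratins with basal cells. Signals of the TGF-beta, BMP, Wnt, EGF, FGF and Notch families direct the growth and branching of such glands, and each family carries feedback inhibitors among its own target genes, which makes ligands, receptors, inhibitors and targets worth reading apart.

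The organoid libraries held 12801473 to 16751502 counts, with 1.35% to 1.91% of counts on mitochondrial genes and 5.96% to 6.72% on the 10 most counted genes. Epithelial markers were abundant in all 6. The summed level of 9 basal markers was 4249.8 to 4619 CPM (counts relative to a scaled library total, with no correction for gene length) in EM and 6381 to 8216 CPM in DM, and that of 13 duct or luminal markers 7535 to 8017 CPM and 8633 to 9511 CPM. The 9 acinar markers summed to 68.4 to 76.9 CPM in EM and 95.03 to 109.2 CPM in DM, against 60342 to 61075 CPM in gland tissue. Of the 10 fibroblast markers 6 had no count in any of the 6 libraries, as had 4 of 8 endothelial, 4 of 9 pericyte, 5 of 11 macrophage and 5 of 9 lymphocyte markers. DM of line 8 stood apart: among 8397 genes of at least 10 CPM, 224 differed by 2-fold or more from the other lines in DM, against 84 for DM of line 7, 27 for DM of line 6 and 7 to 17 for the EM libraries. Several results that depend on that library are therefore given with and without it.

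The move to DM raised matrix, contractile, stratified-epithelium and cytokine genes and lowered Wnt feedback and sodium transport genes, within a broad change of the transcriptome. Of 13713 genes tested by edgeR's quasi-likelihood test, 4158 (30.3%) had a Benjamini-Hochberg adjusted p under 0.05, which is what "called", "rose" and "fell" mean below. There were 2352 called genes higher in DM (17.2%) and 1806 lower (13.2%). These shares are the background for the counts of list members below. The large changes were mostly rises: 525 genes rose at least 4-fold and 127 fell as far, and at 16-fold the counts were 162 and 15. In 6523 genes (47.6%) the 3 DM libraries did not overlap the 3 EM libraries, lying above them in 24.2% and below them in 23.3%, and this held for 2281 of the genes that rose and 1778 of those that fell. Nearly all called genes thus separate the media, so that separation adds little to a call. When libraries were scaled by total counts alone, 1952 genes were called higher and 2597 lower, with the median of all genes at -0.0845 on the log2 scale, so the balance between small rises and small falls depended on the scaling. Without DM of line 8 the counts were 2780 higher and 2581 lower, and leaving out DM of line 6 gave 1855 and 1039. The falls numbered 1185 without EM line 7, 1170 without EM line 8 and 1151 without DM line 7.

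The largest rises came from genes almost silent in EM. Adam12 (ENSMUSG00000054555, chr7:133883199-134232146), a membrane metalloprotease, had no counts in EM and 12.7, 21.1 and 3.01 CPM in DM of lines 6, 7 and 8, at least 311-fold higher with the floor set at 3 counts over the EM group (adjusted p = 0.000314). Tnfrsf11b (ENSMUSG00000063727, chr15:54250619-54278484), which encodes osteoprotegerin, a secreted decoy receptor, measured 0, 0.11 and 0 CPM in EM against 26.1, 43.7 and 9.39 CPM in DM, a ratio of 671-fold by counts, with a 95% counting interval of 229 to 3250.0. Counting intervals, here and below, reflect pooled read counts alone and leave out the spread between lines. In both genes line 8 was the lowest of the 3 in DM. The largest rises and falls were chosen among genes without overlap between the media, so that separation follows from the choice. Il1rl1, the receptor for interleukin-33, measured 0.374, 0.11 and 0.207 CPM in EM against 81.6, 79.2 and 16.8 CPM in DM (log2 fold change 7.99 ± 0.71 SE, adjusted p = 2.4e-05). Rgs5, a regulator of G protein signalling best known from pericytes, measured 0.125, 0.183 and 0.497 CPM in EM against 35.6, 40.4 and 21.1 CPM in DM (6.90 ± 0.39, adjusted p = 2.4e-06). Other genes among the 12 largest rises were Csf2, Postn, Acsbg1, Il18rap, Dynap, Fam167a, Ldlrad4 and Sulf1, with log2 fold changes from 6.53 to 9.08. Ldlrad4 encodes a membrane inhibitor of TGF-beta signalling, and Sulf1 a secreted enzyme that trims heparan sulphate and so alters growth factor binding.

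The largest falls were smaller in size than the largest rises. Lgi2 fell from 12.3, 17.2 and 11.3 CPM to 1.03, 0.692 and 1.35 CPM (log2 fold change -3.73 ± 0.26 SE, adjusted p = 6.39e-06). Slc16a6, a monocarboxylate family transporter, fell from 29.8, 19.5 and 25.7 to 1.49, 1.35 and 3.68 CPM (-3.50 ± 0.30, adjusted p = 2.16e-05). Cldn8, a tight junction claudin of ducts and collecting tubules, fell from 23.4, 23.1 and 22.4 to 2.101, 1.31 and 4.12 CPM (-3.18 ± 0.30, adjusted p = 3.64e-05). For these genes the DM value nearest to the EM range was that of line 8 each time. The remaining genes of the 12 were Olfm5, Pigz, Axin2, Sema3a, Smoc2, Dlk2, Tgfbr3, Plce1 and Tnfrsf19, with log2 fold changes between -3.55 and -2.58. Smoc2 encodes a secreted matrix protein known from intestinal stem cells, and Dlk2 a membrane protein of the Notch ligand type.

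Among abundant transcripts the changes were smaller in fold but moved many counts. Anxa1, a calcium-dependent phospholipid-binding protein, measured 2780.1, 2639.8 and 2928 CPM in EM against 5979.6, 6007 and 4349 CPM in DM (log2 fold change 0.97 ± 0.14 SE, adjusted p = 0.000434). Clu, which encodes the secreted chaperone clusterin, measured 958, 1002 and 1335 CPM in EM against 3971, 3927 and 4261 CPM in DM (1.88 ± 0.18, adjusted p = 4.26e-05). Scd2, a fatty acid desaturase, fell from 2299.7, 2093 and 2378 to 1114, 1209 and 1499 CPM (-0.82 ± 0.18, adjusted p = 0.00566). Each of these genes separated the media fully, as did 47.6% of all genes tested. Ltf, the lactoferrin gene and one of the 5 most abundant genes among the falls, went from 9909, 10148 and 9842 to 6957, 6081 and 7505 CPM (-0.54 ± 0.15, adjusted p = 0.0213), but that call was lost without EM line 6, EM line 7, EM line 8, DM line 6 or DM line 7 (adjusted p up to 0.0775).

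**Figure D1:**
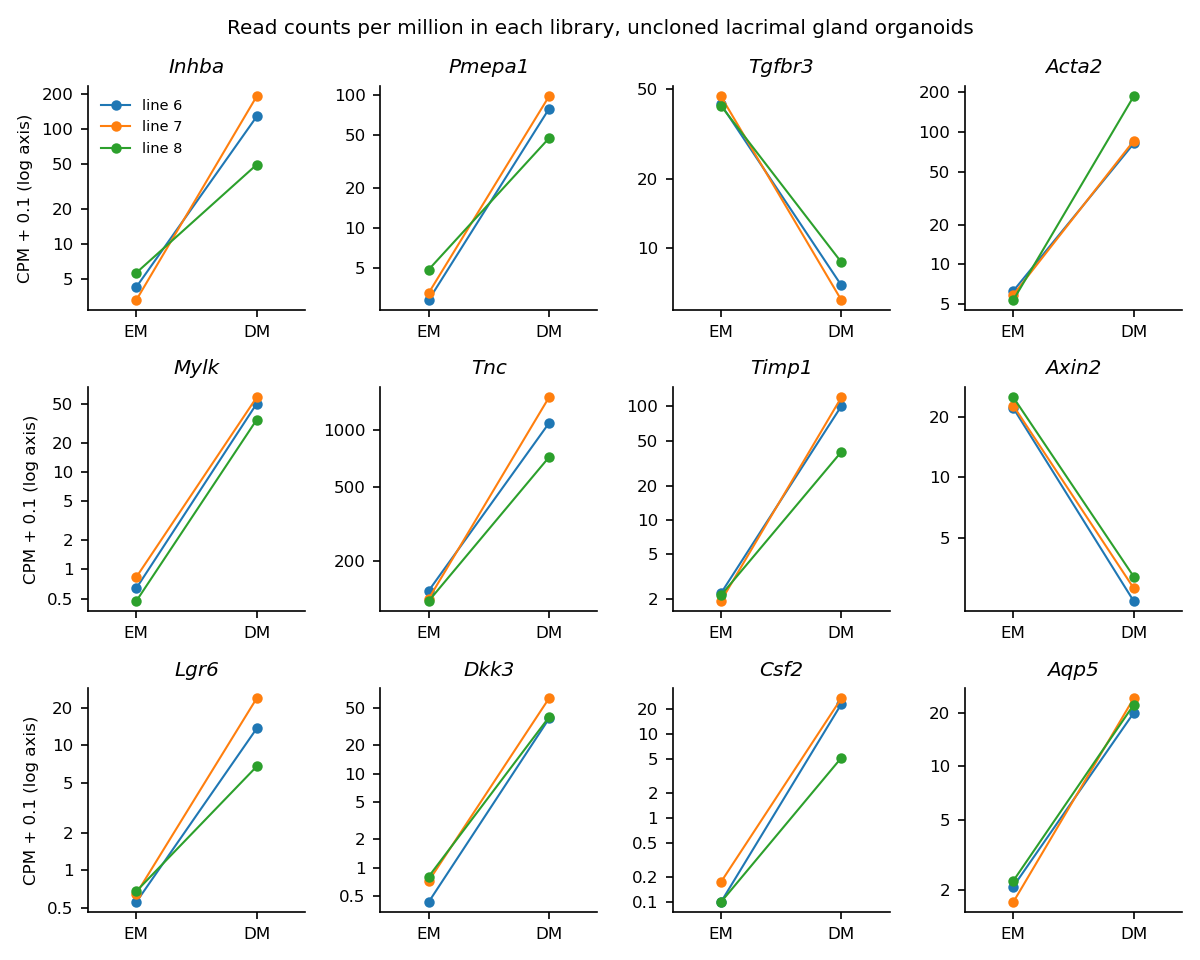
CPM (plus 0.1, log axis with a separate range in each panel) of 12 genes in EM and DM; each line joins the 2 libraries of an organoid line. In every panel the 3 DM values lie on 1 side of the 3 EM values, which the choice of genes required for Tgfbr3, Axin2 and Csf2. The groups do not overlap in 47.6% of all genes tested. For Inhba, Timp1 and Csf2 line 8 changed least (Inhba reached 49.0 CPM in line 8 against 128.6 and 193 CPM in lines 6 and 7).

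TGF-beta family ligands bind paired receptor kinases, which pass the signal to Smad proteins, and Smad7, Skil and Pmepa1 are targets that feed back on the pathway. Of 29 TGF-beta and activin genes tested, 17 rose and 4 fell in DM, with a median log2 fold change of 0.53 beside 0.0 over all genes tested. The ligand that changed most was Inhba (ENSMUSG00000041324, chr13:16011851-16031621), the activin A subunit, at 4.11, 3.14 and 5.51 CPM in EM against 129, 193 and 49 CPM in DM (log2 fold change 4.87 ± 0.45 SE, adjusted p = 2.97e-05). The other ligands were split. Tgfb2 fell from 48.5, 50.9 and 49.6 to 24.96, 25.8 and 33.4 CPM (-0.82 ± 0.12, adjusted p = 0.000644) and Inhbb, the activin B subunit, from 8.01, 9.29 and 8.24 to 4.61, 4.73 and 4.95 CPM (-0.84 ± 0.16, adjusted p = 0.0025). Tgfb1 rose by 0.54 and Tgfb3 by 1.06 (adjusted p = 0.0369 and 0.0166), calls that were lost without EM line 6 or EM line 7, and for Tgfb1 also without DM line 6 or DM line 7 (adjusted p up to 0.159 and 0.0723). Scaled by total counts Tgfb1 was not called.

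Of 6 receptors 2 fell and 1 rose, but the rise was lost without any one library other than DM line 8. Tgfbr3, the co-receptor betaglycan, fell from 42.7, 46.4 and 42.1 to 6.71, 5.77 and 8.52 CPM (log2 fold change -2.64 ± 0.13 SE, adjusted p = 1.23e-06). Tgfbr2, the receptor that binds TGF-beta first, fell from 145, 115 and 150.2 to 69.8, 65.4 and 67.9 CPM (-1.01 ± 0.11, adjusted p = 7.53e-05). For both receptors every DM library was below every EM library, as in 23.3% of all genes tested, and the choice of Tgfbr3 required it. Of 7 inhibitors 5 rose and none fell. Pmepa1, which sequesters receptor Smads, measured 2.74, 3.11 and 4.72 CPM in EM against 78.8, 97.9 and 47.3 CPM in DM (4.41 ± 0.32, adjusted p = 8.32e-06). Smad7, which blocks the receptor, rose from 3.36, 3.18 and 3.64 to 15.9, 17.3 and 8.68 CPM (2.04 ± 0.31, adjusted p = 0.000613). Skil, a Smad co-repressor, rose by 2.13 ± 0.20, Fst, the activin trap follistatin, by 2.79 ± 0.19 and Tgif1 by 0.79 ± 0.13 (adjusted p = 3.02e-05, 6.39e-06 and 0.00126). All 4 latent TGF-beta binding proteins, which hold the ligand in the matrix, rose. Ltbp2 went from 0.125, 0.183 and 0.0828 to 5.18, 12.3 and 1.86 CPM (5.54 ± 0.76, adjusted p = 0.00034) and Ltbp4 from 19.6, 24.6 and 26.2 to 56.9, 74.8 and 50.9 CPM (1.38 ± 0.16, adjusted p = 0.000121). Of 4 target genes 3 rose, among them Tgfbi (2.995 ± 0.20) and Ccn2 (1.91 ± 0.17), with adjusted p = 5.59e-06 and 2.59e-05. Bhlhe40 did not pass the test, at 471, 437 and 427 CPM in EM against 473, 481 and 516 CPM in DM (adjusted p = 0.43).

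BMPs use the same kind of receptor and act through Smad1 and Smad5, with the Id genes as their best known targets. Of 16 BMP genes tested 10 rose and 2 fell. Rises and falls numbered 5 and 2 without EM line 6. Id1, an inhibitor of basic helix-loop-helix factors, rose from 2.41, 3.14 and 1.95 to 18.4, 22.1 and 10.3 CPM (log2 fold change 2.75 ± 0.31 SE, adjusted p = 0.000109). Id2 and Id4 rose by 0.80 ± 0.10 and 0.80 ± 0.18 (adjusted p = 0.000195 and 0.00599). Acvr1, a type I receptor, rose from 18.8, 19.1 and 21.03 to 36.3, 44.1 and 36.6 CPM (0.99 ± 0.11, adjusted p = 7.67e-05). Bmp7 fell from 24.8, 24.1 and 25.4 to 15.3, 18.3 and 18.6 CPM (-0.51 ± 0.11, adjusted p = 0.00574), and the antagonist Sostdc1 from 8.095, 8.37 and 12.2 to 3.33, 3.08 and 5.902 CPM (-1.21 ± 0.27, adjusted p = 0.00659). Bmp1, which despite its name is a metalloprotease that processes collagen, rose by 1.35 ± 0.12 (adjusted p = 2.59e-05). Smad5 was level at 60.03, 62.4 and 60.9 CPM in EM against 61.8, 62.7 and 61.7 CPM in DM, a change of 0.02 that turned sign with total-count scaling.

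Most genes of the contractile apparatus rose. Smooth muscle actin, myosin light chain kinase and calponins let myoepithelial cells contract, and many of their genes are read through the CArG box, the motif that serum response factor binds. Of 17 contractile genes tested 12 rose and none fell, with a median of 1.04, and 11 or 12 rose with any single library left out. Promoters of called contractile genes were searched for exact matches to that box, and the 2 that hold a match are shown. The sequences are from RefSeq (GRCm38.p6) and run from 250 bases before to 50 bases after the start, 5′ to 3′, with the CArG box in capitals. Its search took CC, then 6 letters that are each A or T, then GG.
Myl9 chr2:156775214-156775513 plus strand: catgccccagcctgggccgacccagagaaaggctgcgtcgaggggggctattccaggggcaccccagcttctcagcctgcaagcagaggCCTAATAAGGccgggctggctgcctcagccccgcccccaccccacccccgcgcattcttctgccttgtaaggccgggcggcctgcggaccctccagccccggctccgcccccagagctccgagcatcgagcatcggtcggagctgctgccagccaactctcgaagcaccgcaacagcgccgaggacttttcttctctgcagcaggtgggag
Cnn2 chr10:79988350-79988649 plus strand: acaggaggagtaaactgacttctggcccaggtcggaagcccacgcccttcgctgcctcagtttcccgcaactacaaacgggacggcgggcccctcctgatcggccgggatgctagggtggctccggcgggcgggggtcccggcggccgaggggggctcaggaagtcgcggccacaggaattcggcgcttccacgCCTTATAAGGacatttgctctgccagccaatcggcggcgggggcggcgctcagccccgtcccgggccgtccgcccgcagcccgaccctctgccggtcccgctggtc
The Myl9 box begins 161 bases before the start and the Cnn2 box 56 bases before it. Of the 10 called contractile genes with a promoter in the RefSeq table these 2 held an exact match, against 1.63% of 32851 promoters and 1.61% of 10276 tested genes. The other promoters held no exact match in this window, which says nothing of sites elsewhere or of boxes that depart from the pattern. The Acta2 window holds ccctatatgg and ccttgtttgg, which the search passed over because a letter other than A or T stands between CC and GG.

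Myl9, a regulatory light chain of myosin, rose from 0.913, 1.46 and 0.414 to 5.95, 7.997 and 17.3 CPM (log2 fold change 3.46 ± 0.45 SE, adjusted p = 0.000238). Cnn2, a calponin that binds actin, rose from 102, 89.6 and 106 to 152, 162 and 152 CPM (0.65 ± 0.08, adjusted p = 0.000187). Acta2, smooth muscle actin, measured 6.19, 5.78 and 5.26 CPM in EM against 81.8, 85.8 and 186 CPM in DM (4.36 ± 0.30, adjusted p = 6.39e-06), and line 8 was the highest of the DM libraries. Mylk (ENSMUSG00000022836, chr16:34745210-35002420), the kinase that starts contraction, went from 0.54, 0.731 and 0.373 to 50.3, 58.4 and 34.3 CPM (6.41 ± 0.28, adjusted p = 4.88e-07). Cald1, the actin-binding caldesmon, rose from 36.7, 26.4 and 30.8 to 176, 206 and 168 CPM (2.55 ± 0.12, adjusted p = 1.08e-06). Tagln and Actg2 rose by 4.27 ± 0.39 and 4.28 ± 0.35 to no more than 5.38 and 3.37 CPM. Myh11, the smooth muscle myosin heavy chain, did not follow: it measured 0.0415, 0.256 and 0.124 CPM in EM against 0, 0.154 and 0.277 CPM in DM, against a gland mean of 77.5 CPM (adjusted p = 0.953). The regulators did not pass the test, with Srf at 39.1, 33.3 and 37.2 CPM in EM against 32.6, 35.2 and 33.8 CPM in DM (adjusted p = 0.401) and Mrtfa at 29.4, 30.8 and 32.04 and 26.5, 27.6 and 32.1 CPM (adjusted p = 0.497). In bulk libraries more RNA per cell and more cells of a type cannot be told apart, here and for the falls below.

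Integrins anchor cells to matrix and link to actin through plaque proteins, and genes of both kinds rose. Of 26 focal adhesion and integrin genes tested 17 rose and 3 fell. Itga2, the collagen-binding subunit, measured 11, 8.44 and 18.3 CPM in EM against 196, 229.8 and 83.1 CPM in DM (log2 fold change 3.76 ± 0.37 SE, adjusted p = 4.32e-05), with line 8 lowest in DM. Itga5, the fibronectin-binding subunit, rose from 1.66, 0.987 and 1.08 to 13.5, 17.6 and 6.93 CPM (3.35 ± 0.35, adjusted p = 6.71e-05). Itgb6, whose heterodimer can release latent TGF-beta, rose from 16.8, 16.4 and 19.8 to 106, 87.5 and 46.5 CPM (2.17 ± 0.29, adjusted p = 0.000325). Of the integrin pair of hemidesmosomes, which hold basal cells down, Itgb4 did not pass the test, at 351, 362 and 350.4 CPM in EM against 376, 459 and 315 CPM in DM (adjusted p = 0.511). Its partner Itga6, added after its values were seen, rose (0.62 ± 0.10, adjusted p = 0.000759). Among plaque proteins Pdlim7 rose by 2.30 ± 0.17, Tns1 by 2.25 ± 0.17, the actin crosslinker Flna by 0.93 ± 0.12 and vinculin (Vcl) by 0.64 ± 0.12 (adjusted p = 9.61e-06, 1.14e-05, 0.000248 and 0.00297).

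Matrix genes rose in both basement membrane and interstitial lists. Of 24 basement membrane genes 12 rose and 2 fell, and of 32 interstitial genes 17 rose and 3 fell. With 1 library left out the rises and falls were 12 and 1 without EM line 6 or DM line 6. Laminins are the main glycoproteins of basement membranes, and the products of Lama3 and Lamb3 serve in the laminin of hemidesmosomes. Lama3 measured 133, 123 and 119 CPM in EM against 645, 775 and 293 CPM in DM (log2 fold change 2.19 ± 0.27 SE, adjusted p = 0.000186). Lamb3 rose by 0.49 ± 0.16 (adjusted p = 0.0392), a call lost when any EM library, DM line 6 or DM line 7 was left out (adjusted p up to 0.147), with total-count scaling, and with the line as a block (adjusted p = 0.0522). Lama5, the chain of mature basement membranes, fell from 545, 472 and 457 to 338, 360.0 and 383 CPM (-0.45 ± 0.12, adjusted p = 0.0173), a call lost without EM line 6 or DM line 6 (adjusted p up to 0.0778). Col7a1, the anchoring fibril collagen, rose from 2.698, 5.37 and 4.51 to 88.98, 134 and 65.8 CPM (4.51 ± 0.29, adjusted p = 4.48e-06). Col4a3 and Col4a4, neighbouring genes whose chains assemble together, went from 0.083, 0 and 0 and 0, 0 and 0 CPM in EM to 4.87, 6.27 and 3.72 and 5.48, 8.15 and 5.704 CPM in DM. For Col4a4, which had no counts in EM, DM was at least 165-fold higher (adjusted p = 2.38e-05).

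Among interstitial genes 7 of 9 matricellular proteins rose, as did 6 of 13 collagens. For the interstitial list the 3 falls became 0 without DM line 6, 1 without EM line 7 and 2 without EM line 6, EM line 8 or DM line 7. Tnc (tenascin-C), a matricellular protein, measured 139, 126 and 123 CPM in EM against 1088, 1492 and 717 CPM in DM (log2 fold change 3.09 ± 0.25 SE, adjusted p = 1.4e-05). Fn1 (fibronectin) went from 233, 187 and 286 to 834, 1097 and 703 CPM (1.90 ± 0.18, adjusted p = 3.36e-05). Lox, which crosslinks collagen and elastin, went from 7.18, 6.03 and 12.3 to 99.1, 118 and 207 CPM (4.06 ± 0.35, adjusted p = 2.2e-05), with line 8 the highest. Postn (periostin) measured 0.166, 0.219 and 0.0828 CPM in EM against 22.3, 35.4 and 61.8 CPM in DM (7.92 ± 0.52, adjusted p = 4.76e-06), again highest in line 8. Sparc rose by 4.57 ± 0.23 and Col12a1 by 3.55 ± 0.19 (adjusted p = 1.23e-06 and 1.63e-06). In contrast Col1a2 had no count in any organoid library and a gland mean of 118 CPM, and Col1a1 did not exceed 0.461 CPM in any organoid library. Beside these rises, Fbln1, the only fibroblast marker above 1 CPM in the organoids, fell from 133, 133 and 144 to 59.1, 55.1 and 113 CPM (-0.85 ± 0.22, adjusted p = 0.0124), a call lost without DM line 6 (adjusted p up to 0.0553).

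Most matrix proteases and their inhibitors rose. Of 24 tested 16 rose and none fell. Leave-one-out counts of rises and falls were 15 and 1 without EM line 7 and 16 and 2 without DM line 8. Timp1, an inhibitor of metalloproteases, measured 2.16, 1.83 and 2.07 CPM in EM against 101, 121 and 39.9 CPM in DM (log2 fold change 5.43 ± 0.40 SE, adjusted p = 9e-06). Serpinb2, an inhibitor of plasminogen activators, rose from 2.45, 0.95 and 3.06 to 27.1, 30.5 and 10.3 CPM (3.40 ± 0.45, adjusted p = 0.000288). On the protease side Plau, the urokinase, rose from 75.3, 48.8 and 50.1 to 356, 352 and 155 CPM (2.31 ± 0.29, adjusted p = 0.000198), and Plaur, its receptor, from 10.1, 7.603 and 10.3 to 46.9, 55.5 and 26.6 CPM (2.20 ± 0.24, adjusted p = 8.21e-05). Mmp14, a membrane metalloprotease, rose from 179, 158 and 175 to 322, 396 and 249.6 CPM (0.92 ± 0.14, adjusted p = 0.000699). Mmp13, a collagenase, rose by 4.84 ± 0.61 but stayed at or below 3.23 CPM (adjusted p = 0.000216). Line 8 was the lowest of the DM libraries for all of these 6 genes.

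**Figure D2:**
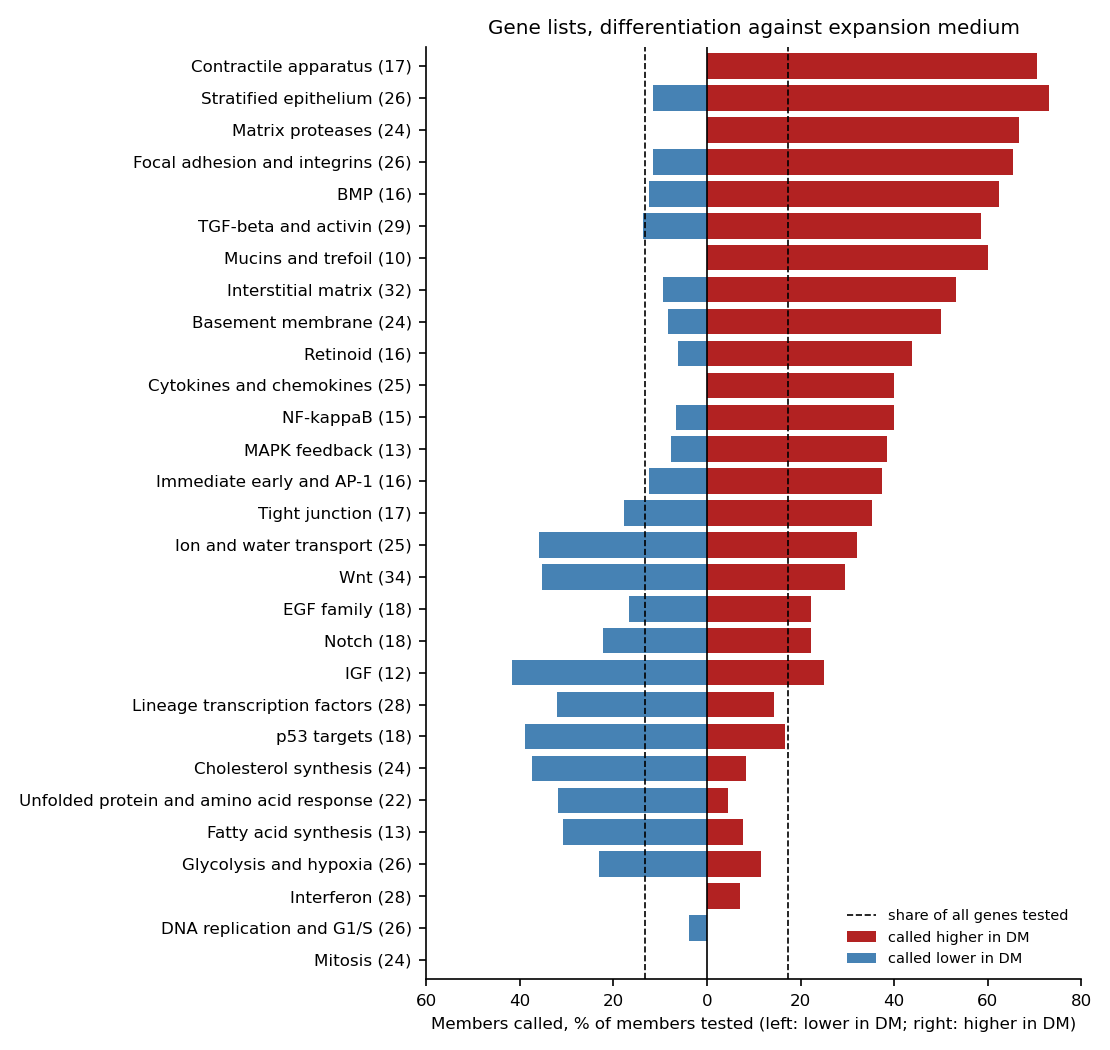
Share of the tested members of 29 gene lists called higher (right, red) and lower (left, blue) in DM, with the number tested in brackets and dashed lines at the shares of all genes tested (17.2% higher, 13.2% lower). The contractile list stands at 12 of 17 higher and none lower, and mitosis at 0 of 24 in either direction.

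Wnt signalling stabilises beta-catenin, and its targets include inhibitors that damp it again. The 34 Wnt genes tested were split, with 10 higher and 12 lower in DM, and the inhibitors were mostly lower. Of 8 inhibitors 5 fell and 2 rose, and 4 or 5 fell with any single library left out. Axin2, the most widely used readout of the pathway, fell from 22.04, 22.7 and 24.96 to 2.31, 2.69 and 3.09 CPM (log2 fold change -3.10 ± 0.18 SE, adjusted p = 2.5e-06). Notum, which removes the lipid of Wnt ligands, fell from 2.57, 2.16 and 2.28 to 0.41, 0.0769 and 0.396 CPM (-2.998 ± 0.41, adjusted p = 0.000365), and Rnf43, which clears Frizzled receptors, from 21.3, 20.8 and 22.4 to 8.71, 9.69 and 13.8 CPM (-0.99 ± 0.15, adjusted p = 0.000771). Every DM library lay below every EM library for these 3 genes, as in 23.3% of all genes tested, and the choice of Axin2 required it. Dkk3 (ENSMUSG00000030772, chr7:112116017-112159057), a secreted protein of the Dickkopf family, moved the other way, from 0.332, 0.621 and 0.704 to 38.3, 63.01 and 39.7 CPM (6.39 ± 0.28, adjusted p = 4.88e-07), as did Nkd2, from 0.955, 0.621 and 0.786 to 18.1, 8.73 and 5.704 CPM (3.77 ± 0.44, adjusted p = 0.000123). Of the targets Tnfrsf19 fell from 12.99, 19.3 and 18.8 to 1.85, 2.31 and 4.28 CPM (-2.58 ± 0.26, adjusted p = 4.59e-05) and Ascl2 from 1.37, 0.95 and 1.37 to 0.205, 0.231 and 0.594 CPM (-1.78 ± 0.38, adjusted p = 0.00495), while Tcf7 rose from 3.28, 3.22 and 3.85 to 8.56, 8.304 and 6.42 CPM (1.17 ± 0.19, adjusted p = 0.000959).

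The letters CTTTGAT or ATCAAAG, the core recognised by TCF and LEF factors, were found in the promoter of 1 of the 4 falling inhibitors and targets that matched the RefSeq table (7 fell in all), against 3.73% of all promoters and 3.12% of tested genes. That promoter is given with the core in capitals, since Tnfrsf19 was among the largest falls.
Tnfrsf19 chr14:61037938-61038237 minus strand: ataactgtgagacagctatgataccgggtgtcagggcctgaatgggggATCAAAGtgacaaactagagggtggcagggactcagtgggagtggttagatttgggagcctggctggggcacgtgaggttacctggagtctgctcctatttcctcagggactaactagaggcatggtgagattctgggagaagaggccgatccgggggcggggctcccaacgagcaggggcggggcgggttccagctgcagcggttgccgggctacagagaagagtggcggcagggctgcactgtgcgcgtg
The core begins 202 bases before the start of this transcript. Tnfrsf19 has a further start in the table whose window holds no match.

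Receptors and ligands of the Wnt pathway changed gene by gene. The R-spondin receptors went in opposite directions: Lgr6 rose from 0.457, 0.548 and 0.579 to 13.6, 23.8 and 6.69 CPM (log2 fold change 4.78 ± 0.49 SE, adjusted p = 5.33e-05) and Lgr5, a stem cell marker in several epithelia, fell from 1.95, 1.499 and 1.697 to 0.718, 0.231 and 0.198 CPM (-2.22 ± 0.46, adjusted p = 0.00421), a trace level in both media. Among Frizzled receptors Fzd10 fell from 5.52, 8.15 and 8.32 to 0.41, 0.615 and 1.03 CPM (-3.38 ± 0.34, adjusted p = 5.23e-05), and Fzd1 rose from 15.9, 22.3 and 22.1 to 62.1, 65.4 and 48.5 CPM (1.55 ± 0.15, adjusted p = 3.71e-05). The groups did not overlap for any of these receptors, as for 47.6% of all genes tested. Among ligands Wnt4 fell from 70.5, 78.01 and 78.2 to 44.5, 38.1 and 47.1 CPM (-0.81 ± 0.10, adjusted p = 0.000233) and Wnt10a with it (-0.67 ± 0.15, adjusted p = 0.00543), while Wnt5b rose by 1.29 ± 0.24 and Wnt9a by 1.23 ± 0.30 (adjusted p = 0.00241 and 0.0113). The co-receptors Lrp6 and Lrp5 did not pass the test. Lrp6 measured 114, 109 and 115 CPM in EM against 96.7, 103 and 104 CPM in DM (adjusted p = 0.106).

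EGF receptor signalling runs through MAP kinases to AP-1 and ETS factors. Of its 18 genes tested 4 rose and 3 fell, where 17.2% of all genes tested rose and 13.2% fell. Under other settings the rises and falls were 1 and 3 without EM line 6, 0 and 3 without EM line 7, 2 and 2 without EM line 8, 0 and 2 without DM line 6, 1 and 2 without DM line 7 and 2 and 3 with total-count scaling. Nrg2, a neuregulin, fell from 28.2, 28.8 and 26.5 to 5.74, 3.46 and 9.94 CPM (log2 fold change -2.12 ± 0.30 SE, adjusted p = 0.000445). Lrig1, a receptor inhibitor that marks quiescent stem cells, fell from 70.7, 75.4 and 69.7 to 33.9, 33.02 and 32.1 CPM (-1.12 ± 0.16, adjusted p = 0.000383). Both falls were present in each line. Egfr itself was 177, 172 and 169 CPM in EM against 226, 239.7 and 177 CPM in DM (adjusted p = 0.0668, and 0.0356 with the line as a block). Without DM line 8 Egfr was called higher in DM (log2 fold change 0.43, adjusted p = 0.00252). Downstream, Jun, an AP-1 subunit, rose from 144, 151 and 146 to 286, 308 and 340.5 CPM (1.09 ± 0.11, adjusted p = 5.45e-05) and Junb from 108, 114 and 121 to 229, 264 and 159 CPM (0.92 ± 0.17, adjusted p = 0.00246), whereas Jund fell from 78.3, 75.1 and 98.1 to 47.5, 48.5 and 52.3 CPM (-0.76 ± 0.12, adjusted p = 0.000895). Etv4, an ETS factor induced by the pathway, rose from 12.7, 11.4 and 12.4 to 20.5, 27.1 and 21.3 CPM (0.92 ± 0.14, adjusted p = 0.000601), and the feedback inhibitor Spry1 fell from 13.7, 15.8 and 16.8 to 4.36, 6.46 and 8.002 CPM (-1.29 ± 0.21, adjusted p = 0.000988).

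FGF, IGF and Notch genes were likewise split between directions. Fgf1 rose from 24.7, 27.9 and 26.2 to 67.2, 66.1 and 57.3 CPM (log2 fold change 1.27 ± 0.09 SE, adjusted p = 8.13e-06). Fgfr3 fell from 107, 106 and 93.4 to 36.6, 22.8 and 46.5 CPM (-1.53 ± 0.20, adjusted p = 0.000298), and Fgf10, the mesenchymal ligand of gland budding, had no counts in any organoid library. Igfbp3, which binds IGFs and is a common TGF-beta target, rose from 177, 184 and 223 to 782, 855 and 652 CPM (1.97 ± 0.13, adjusted p = 5.54e-06). Igfbp5 went the other way, from 389, 504 and 393 to 134, 118 and 319.7 CPM (-1.17 ± 0.31, adjusted p = 0.0157), with line 8 nearest to its EM values, and that call was lost without EM line 7 or DM line 6 (adjusted p up to 0.0658). The Igf2r and Irs2 genes fell, with log2 fold changes of -0.66 ± 0.10 and -0.77 ± 0.13 (adjusted p = 0.000866 and 0.00125). The Notch ligands split as well: Jag1 rose from 43.8, 39.8 and 36.1 to 142, 190.5 and 61.3 CPM (1.72 ± 0.30, adjusted p = 0.0017), while Jag2 fell from 87.4, 96.98 and 91.4 to 46.1, 50.4 and 52.3 CPM (-0.89 ± 0.09, adjusted p = 5.45e-05) and Dll1 from 18.5, 21.97 and 19.4 to 10.8, 8.996 and 13.3 CPM (-0.85 ± 0.17, adjusted p = 0.00344). Of 4 Notch targets tested Hes1 (0.58 ± 0.12) and Dtx4 (0.94 ± 0.11) rose (adjusted p = 0.00388 and 0.000154).

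Stratified epithelia such as skin and cornea express stress keratins, desmosomal cadherins and cornified envelope proteins. Of 26 such genes tested 19 rose and 3 fell, and 14 to 19 rose with any single library left out, while the falls numbered 1 without EM line 6, DM line 6 or DM line 7. Krt6a, a keratin of wounded and stratified epithelium, went from 273, 209 and 279 to 986, 915 and 656 CPM (log2 fold change 1.75 ± 0.18 SE, adjusted p = 7.14e-05). Krt16, its usual partner in wounds, went from 2.698, 2.78 and 3.81 to 18.04, 24.4 and 6.497 CPM (2.40 ± 0.41, adjusted p = 0.00129). Krt12, the keratin of the corneal epithelium, went from 0.706, 1.24 and 1.41 to 18.5, 21.1 and 7.13 CPM (3.79 ± 0.41, adjusted p = 8.14e-05). These rises were smallest in line 8. Dsg3, a desmosomal cadherin, rose from 41.5, 30.3 and 30.4 to 188, 221 and 153 CPM (2.46 ± 0.17, adjusted p = 5.54e-06), and Sprr1a, an envelope precursor, from 225, 211 and 218 to 429, 582 and 580.3 CPM (1.28 ± 0.15, adjusted p = 0.000145). Of the regulators Sfn (14-3-3 sigma) rose from 109.6, 110.3 and 130.2 to 557, 656 and 379.9 CPM (2.19 ± 0.18, adjusted p = 1.75e-05). Against this trend the plakin gene Ppl fell from 306, 278 and 297 to 105, 114 and 188 CPM (-1.11 ± 0.18, adjusted p = 0.000919). Of the other cornea markers Aldh3a1 and Tkt fell, with log2 fold changes of -0.99 ± 0.16 and -0.52 ± 0.10 (adjusted p = 0.000909 and 0.00302), so the cornea list held both directions.

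Barrier genes of the cell surface changed with them. Of 10 mucin and trefoil genes tested 6 rose and none fell, with 4 to 6 rising under any single omission. Muc1, a membrane mucin, rose from 12.2, 13.6 and 9.73 to 39.1, 31.5 and 28.3 CPM (log2 fold change 1.47 ± 0.19 SE, adjusted p = 0.000236), and Muc20 from 33.6, 26.4 and 21.3 to 78.7, 59.1 and 64.8 CPM (1.32 ± 0.16, adjusted p = 0.000145). Muc5ac, the gel-forming mucin of goblet cells, was at most 2.34 CPM in any library (adjusted p = 0.983, with a sign that turns under total-count scaling). Tight junction genes were mixed, 6 higher and 3 lower of 17. Rises and falls numbered 5 and 1 without EM line 6 and 6 and 1 without EM line 8 or DM line 6. Cldn1, a sealing claudin of stratified epithelium, rose from 10.2, 6.799 and 9.52 to 40.2, 37.8 and 27.4 CPM (1.99 ± 0.22, adjusted p = 8.21e-05) and Cldn4 from 594, 566 and 668 to 1109, 1138 and 932 CPM (0.80 ± 0.14, adjusted p = 0.00197), in contrast with the fall of Cldn8 given above. Of 11 antimicrobial genes 4 rose and 2 fell. Under other settings the rises and falls were 2 and 0 without EM line 6, 2 and 1 without EM line 7 or DM line 6, 1 and 3 without EM line 8, 5 and 0 without DM line 7, 3 and 4 without DM line 8 and 3 and 4 with total-count scaling. C3, the central complement protein, rose from 125, 131 and 83.9 to 257, 281 and 272 CPM (1.25 ± 0.15, adjusted p = 0.00019). Of the 9 basal markers 4 rose and 1 fell. Leave-one-out counts of rises and falls were 3 and 0 without EM line 6 and 4 and 0 without EM line 7, DM line 7 or DM line 8. Of the 13 duct or luminal markers 5 rose and 4 fell, with a median log2 fold change of -0.056. Omitting libraries gave rises and falls of 5 and 2 without DM line 6. Krt8, a keratin of simple epithelium, went from 858, 904 and 923 to 1833, 1992 and 1607 CPM (1.02 ± 0.10, adjusted p = 5.45e-05) and Krt14, of basal cells, from 612, 676 and 676 to 2189.6, 2346 and 1565 CPM (1.64 ± 0.15, adjusted p = 2.59e-05).

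Epithelial cells can also make cytokines, and 10 of 25 cytokine and chemokine genes tested rose in DM with none lower. Csf2, which encodes GM-CSF, measured 0, 0.0731 and 0 CPM in EM against 22.6, 26.4 and 5.11 CPM in DM, a ratio of 671-fold by counts, with a 95% counting interval of 185 to 5550.0. Its fitted log2 fold change by edgeR was 9.08 ± 0.90 SE (adjusted p = 4.46e-05). Il1a, an alarmin of damaged epithelium, measured 2.53, 2.38 and 3.56 CPM in EM against 60.9, 66.5 and 14.5 CPM in DM (log2 fold change 4.07 ± 0.49 SE, adjusted p = 0.000168). Tslp, which primes dendritic cells, measured 20.4, 13.4 and 40.5 CPM in EM against 191, 169 and 72.3 CPM in DM (2.54 ± 0.42, adjusted p = 0.00118). In DM of line 8 all 3 genes were lower than in DM of lines 6 and 7, though still above every EM library. The rises and falls became 16 and 2 without DM line 8 and 10 and 2 with total-count scaling. Traf1, a target of NF-kappaB, rose from 0.0415, 0.0366 and 0.373 to 10.9, 10.6 and 2.496 CPM (5.70 ± 0.78, adjusted p = 0.000342) and Tnfaip3, its inhibitor, from 47.9, 41.1 and 50.7 to 113, 110.1 and 69.5 CPM (1.07 ± 0.21, adjusted p = 0.00282). Icam1, an adhesion molecule often induced by NF-kappaB, fell from 123, 118 and 132 to 65.1, 65.7 and 79.3 CPM (-0.83 ± 0.16, adjusted p = 0.00313). Ptgs2, the inducible cyclooxygenase, went from 6.601, 3.73 and 8.69 to 169, 205 and 39.5 CPM (4.45 ± 0.55, adjusted p = 0.000186).

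Interferon-induced genes were mostly lower in DM in line 7, mostly higher in line 8 and split in line 6. The median log2 ratios of DM to EM were 0.0235, -0.588 and 0.444 in lines 6, 7 and 8. Of 28 tested 2 rose and none fell, and 1 fell with the line as a block. Under other settings the rises and falls were 1 and 0 without EM line 6, EM line 7, EM line 8 or DM line 6, 5 and 0 without DM line 7, 2 and 7 without DM line 8 and 1 and 1 with total-count scaling. The number of members lower in DM than in EM was 13 in line 6, 25 in line 7 and 1 in line 8, each from a single library per medium. The share of all genes lower in each line was not counted. Irf7, the amplifier of the interferon response, measured 192, 200.4 and 206 CPM in EM against 147, 90.04 and 298 CPM in DM (-0.16 ± 0.36, adjusted p = 0.774). Class I antigen presentation followed the same order of lines: H2-K1, a class I heavy chain, measured 1329, 1365 and 1323 CPM in EM against 1224, 952 and 2214 CPM in DM (0.13 ± 0.25, adjusted p = 0.746). In both genes DM of line 8 was the highest of the 6 libraries and DM of line 7 the lowest. Gbp2, a guanylate-binding GTPase, rose, at 36.6, 34.9 and 28.8 CPM in EM against 90.8, 56.1 and 72.2 CPM in DM (1.13 ± 0.25, adjusted p = 0.00674).

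Genes of the cell cycle were lower in DM in lines 6 and 7, while line 8 was split. Mitosis genes, for the spindle, kinetochore and chromosome condensation, are transcribed late in the cycle of dividing cells. With all libraries none of the 24 mitosis genes tested was called, although the median log2 fold change was -0.56. At an unadjusted p under 0.05 3 of them were lower by edgeR, and DESeq2 called 0. Without DM of line 8 all 24 were called lower, with a median of -1.03. Leaving out any other single library gave 0 calls. In lines 6 and 7 all 24 were lower in DM than in EM, and in line 8 only 10 were. Each such count sets a single library against a single library, and the share of all genes lower in each line was not counted. The summed level of the 24 genes went from 2364 to 949 CPM in line 6, from 2077 to 1202 CPM in line 7 and from 2310.0 to 2304 CPM in line 8. Mki67, the standard marker of cycling cells, measured 411, 346 and 412 CPM in EM against 131, 181 and 351 CPM in DM (log2 fold change -0.82 ± 0.40, adjusted p = 0.154, and 0.049 with the line as a block). Top2a, the topoisomerase of mitotic chromosomes, measured 332, 299 and 328 CPM in EM against 126, 173 and 317 CPM in DM (adjusted p = 0.139, and 0.0351 with the block). For both genes DM of line 8 was the closest to its own EM value.

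**Figure D3:**
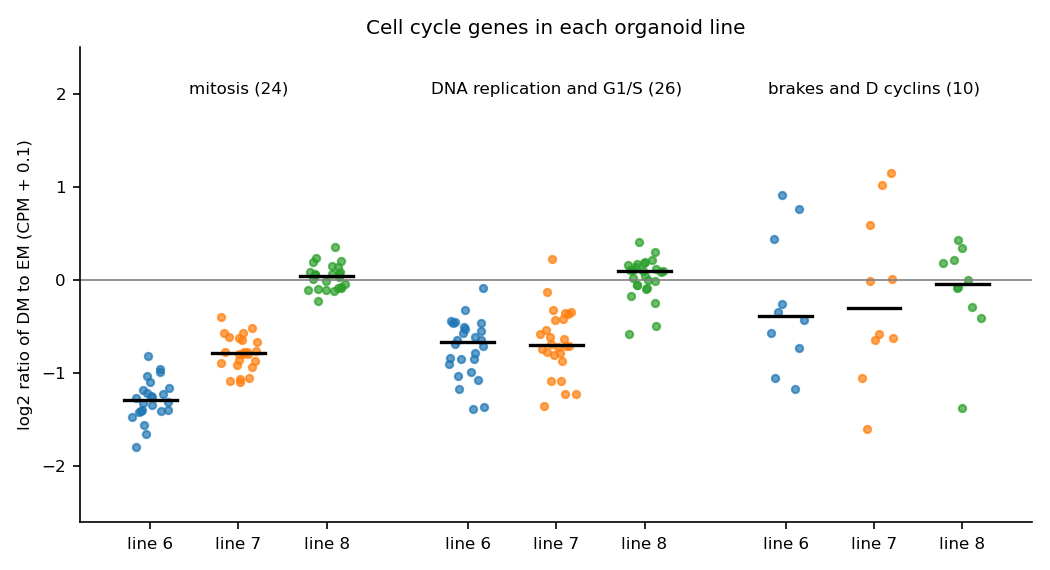
Log2 ratio of DM to EM (CPM plus 0.1) in each organoid line for the tested genes of 3 lists, with 1 point per gene and bars at the median. Mitosis genes lie below 0 in lines 6 and 7 (24 of 24 in each) and around 0 in line 8, where 10 of 24 were lower in DM.

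DNA replication and G1/S genes showed the same pattern, with 1 of 26 called lower using all libraries and 21 without DM of line 8. Leaving out any other single library gave 0 or 1. All 26 were lower in DM in line 6, 25 in line 7 and 9 in line 8, again without the share of all genes to set beside them. Rrm2, a subunit of ribonucleotide reductase, measured 54.4, 48.8 and 49.5 CPM in EM against 21.1, 22.95 and 47.8 CPM in DM (log2 fold change -0.73 ± 0.27, adjusted p = 0.066, and 0.0214 with the block). With the line as a block 7 mitosis genes and 4 replication genes were called lower. Of 7 cell cycle inhibitors tested 2 rose and 3 fell. Leave-one-out counts of rises and falls were 1 and 3 without EM line 6 or EM line 8, 1 and 2 without EM line 7 and 1 and 1 without DM line 6 or DM line 7. Cdkn1a, the p21 gene, rose from 109.9, 90.9 and 108 to 186, 185 and 146 CPM (0.74 ± 0.11, adjusted p = 0.000539), and line 8 took part. Cdkn2b, an inhibitor induced by TGF-beta in epithelia, rose from 20.8, 20.2 and 18.8 to 39.2, 44.8 and 23.8 CPM (0.85 ± 0.25, adjusted p = 0.0235), but that call was lost without EM line 6, EM line 7, EM line 8, DM line 6 or DM line 7 (adjusted p up to 0.0864). Cdkn2c fell from 16.02, 17.3 and 17.2 to 7.69, 8.34 and 12.95 CPM (-0.80 ± 0.20, adjusted p = 0.013), a call lost without DM line 6 (adjusted p up to 0.0578). Cdkn1b, the p27 gene, fell from 82.03, 90.4 and 78.4 to 55.4, 57.9 and 74.4 CPM (-0.42 ± 0.11, adjusted p = 0.0151), a call lost without EM line 7, DM line 6 or DM line 7 (adjusted p up to 0.0713), and Cdkn1c, the p57 gene, from 1.16, 1.13 and 1.28 to 0.461, 0.308 and 0.436 CPM (-1.57 ± 0.42, adjusted p = 0.0157), a call lost without DM line 7 (adjusted p up to 0.0648). The D cyclins Ccnd1, Ccnd2 and Ccnd3 did not pass, and Ccnd1 was 491, 433 and 406 CPM in EM against 365, 430.1 and 333 CPM in DM (adjusted p = 0.221). Without DM line 8 Ccnd3 was called lower (log2 fold change -0.45, adjusted p = 0.0066), while Ccnd1 and Ccnd2 were not called.

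Line 8 also changed less in most called genes that changed at least 4-fold. Among genes of at least 10 CPM that rose at least 4-fold, line 8 had the smallest change of the 3 lines in 141 of 192 (73.4%), with medians of 3.13, 3.17 and 2.4 on the log2 scale in lines 6, 7 and 8. Among those that fell as far it had the smallest change in 21 of 25 (84.0%). Tfcp2l1, a transcription factor of ducts and tubules, shows the order: it fell from 1910.2, 1982 and 1903 to 310.5, 209 and 762 CPM (log2 fold change -2.18 ± 0.37 SE, adjusted p = 0.00125). Aldh1a3, which makes retinoic acid, rose from 41.8, 41.1 and 44.2 to 1122, 1421 and 333 CPM (4.50 ± 0.44, adjusted p = 4.01e-05). Ppargc1a, a coactivator of mitochondrial genes, fell from 6.31, 8.37 and 8.402 to 0.154, 0.192 and 1.86 CPM (-3.33 ± 0.61, adjusted p = 0.00212). Acta2, Lox and Postn, above, went against this order. A test of the line terms, with medium in the model, called 0 of 13029 genes by edgeR with 2 residual degrees of freedom. At an unadjusted p under 0.05 780 genes passed, the smallest adjusted p was 0.0912, and with no filter on low counts 51 of 20380 genes were called. Those terms are shifts of a line shared by both media. With a single library per line and medium, a difference between lines in the response to DM could not be tested. The total of DM of line 8, 16197699 counts, lay between those of the other DM libraries.

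**Figure D4:**
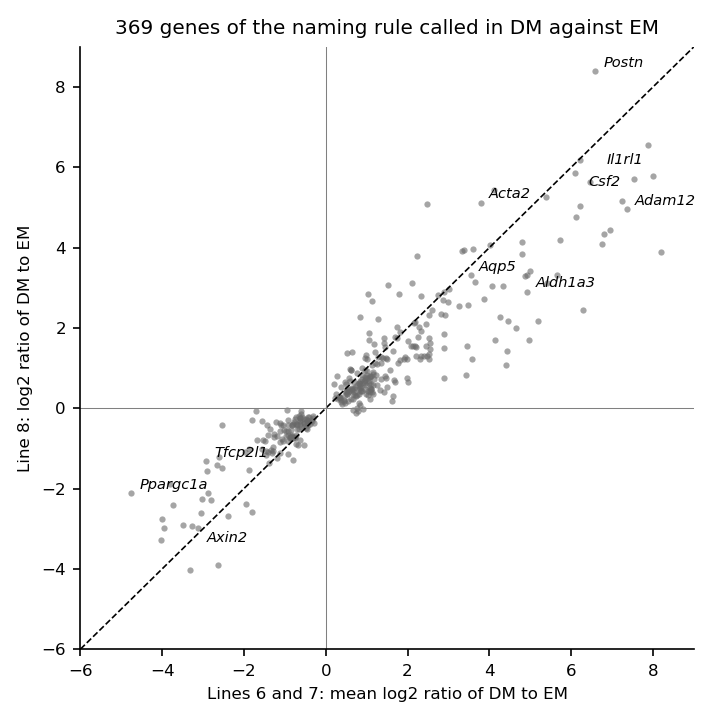
Log2 ratio of DM to EM in line 8 against the mean of lines 6 and 7 for the 369 called genes among those chosen by the naming rule, including some not described in the text, with at least 1 CPM in a medium; the dashed line marks equality. In 304 of 369 the change was smaller in line 8 and in 365 it had the same sign, with Acta2 and Postn above the line.

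Lists of metabolic genes held more falls than rises, where 17.2% of all genes tested rose and 13.2% fell. Cholesterol is made from acetyl-CoA under control of SREBP2. Of 24 genes of that list 9 fell and 2 rose. Under other settings the rises and falls were 1 and 7 without EM line 6 or DM line 6, 1 and 8 without EM line 7 and 1 and 12 with total-count scaling. Dhcr7, the last enzyme of the route, fell from 112, 98.9 and 115 to 38.5, 37.9 and 51.8 CPM (log2 fold change -1.34 ± 0.14 SE, adjusted p = 7.67e-05). Of 13 fatty acid genes 4 fell and 1 rose. The rises and falls became 1 and 7 with total-count scaling. Elovl6, which lengthens fatty acids, fell from 73.5, 70.04 and 80.8 to 38.6, 40.3 and 49.4 CPM (-0.80 ± 0.11, adjusted p = 0.000378). In the list of glycolysis and hypoxia 6 of 26 fell and 3 rose, with a median log2 fold change of -0.113. Under other settings the rises and falls were 1 and 6 without EM line 7, 0 and 5 without EM line 8, 3 and 11 without DM line 8 and 1 and 10 with total-count scaling. Gpi1, which isomerises glucose phosphate, fell from 1405, 1206 and 1114 to 621, 588 and 834 CPM (-0.87 ± 0.14, adjusted p = 0.000974), and the glucose transporter Slc2a1 from 266, 204 and 223 to 149, 152 and 189 CPM (-0.50 ± 0.12, adjusted p = 0.00921). Pkm, at the far end of the route, was 2340.2, 2263 and 2418 CPM in EM against 2446, 2504 and 2658 CPM in DM (adjusted p = 0.4).

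ATF4 is a transcription factor translated under amino acid or ER stress, and it drives amino acid synthesis and import. Of 8 genes of that arm 6 fell with all libraries and all 8 without DM of line 8, while 3 fell without EM line 6 or DM line 6 and 4 without EM line 8 or DM line 7. Psat1, of serine synthesis, fell from 223, 177 and 208 to 67.6, 56.2 and 119 CPM (log2 fold change -1.32 ± 0.25 SE, adjusted p = 0.00229). Asns, which makes asparagine, fell from 89.8, 68.5 and 82.4 to 34.4, 29.6 and 42.3 CPM (-1.18 ± 0.14, adjusted p = 0.000157). All 8 were lower in DM in each line, where the share of all genes was not counted. Of 14 ER chaperone genes 1 rose and 1 fell, and both calls were lost without any one library other than DM line 8, and the rise with total-count scaling. Hspa5, the main ER chaperone, was 933, 786 and 800.5 CPM in EM against 856, 790.2 and 921 CPM in DM (adjusted p = 0.936), a difference that changed sign with total-count scaling. Slc7a11, the cystine importer, fell from 26.3, 31.1 and 28.4 to 7.94, 6.805 and 5.39 CPM (-2.10 ± 0.29, adjusted p = 0.00038), while Nqo1, a target of NRF2 like it, rose from 2.28, 2.41 and 3.68 to 12.3, 13.6 and 9.19 CPM (2.06 ± 0.23, adjusted p = 8.38e-05). The metallothionein genes Mt1 and Mt2, induced by metals and glucocorticoids, fell, with log2 fold changes of -1.20 ± 0.16 and -1.74 ± 0.18 (adjusted p = 0.000275 and 4.99e-05).

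Fluid secretion needs ion transporters, water channels and receptors, and these moved in different directions. Of 11 sodium and potassium transport genes 7 fell and 2 rose, in every fit with a library left out. Scnn1a, a subunit of the epithelial sodium channel, fell from 36.5, 35.97 and 39.98 to 7.59, 4.92 and 14.2 CPM (log2 fold change -2.07 ± 0.29 SE, adjusted p = 0.000393). Kcnn4, a calcium-activated potassium channel used in secretion, rose from 4.11, 2.595 and 4.14 to 32.3, 41.6 and 12.4 CPM (2.995 ± 0.38, adjusted p = 0.000227). Among chloride channels Cftr fell from 22.6, 25.99 and 21.5 to 9.02, 7.42 and 17.2 CPM (-1.06 ± 0.27, adjusted p = 0.013), a call lost without EM line 7 or DM line 6 (adjusted p up to 0.0575), and Ano1, the calcium-activated channel of acini, rose from 68.2, 86.7 and 66.6 to 114, 124 and 91.9 CPM (0.58 ± 0.13, adjusted p = 0.0067). The water channel genes Aqp4 and Aqp5 rose. Aqp4 went from 53.3, 94.9 and 38.04 to 530.0, 524 and 284 CPM (2.84 ± 0.33, adjusted p = 0.000119). Aqp5 (ENSMUSG00000044217, chr15:99590782-99594829), the channel of acinar cells, went from 1.99, 1.61 and 2.15 to 19.99, 24.2 and 22.2 CPM (3.53 ± 0.14, adjusted p = 4.88e-07), and gland tissue measured 353, 295 and 353 CPM. Aqp3 was 89.1, 107 and 73.4 CPM in EM against 92.9, 75.4 and 93.6 CPM in DM (adjusted p = 0.865).

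Of 15 regulated secretion genes 5 rose and 3 fell. The rises and falls became 3 and 3 without EM line 6 or EM line 8, 3 and 1 without DM line 6, 6 and 5 without DM line 8 and 3 and 3 with total-count scaling. Chrm3, the muscarinic receptor that triggers tear secretion, was 3.82, 3.84 and 4.305 CPM in EM against 2.56, 1.65 and 4.24 CPM in DM (adjusted p = 0.199), and without DM line 8 it was lower (-0.94 ± 0.22, adjusted p = 0.00472). Rab27b, which docks secretory granules, rose from 16.9, 13.8 and 13.1 to 51.8, 48.02 and 45.4 CPM (log2 fold change 1.73 ± 0.15 SE, adjusted p = 2.38e-05). Bhlha15 (Mist1), the factor of acinar secretory cells, was 1.16, 1.06 and 1.12 CPM in EM against 0.564, 0.577 and 1.15 CPM in DM, under its gland mean of 1123 CPM (adjusted p = 0.141), and was lower in DM without DM line 8 (-0.95 ± 0.22, adjusted p = 0.00736). Of 28 lineage transcription factors 4 rose and 9 fell, where 17.2% of all genes tested rose and 13.2% fell. Omitting libraries gave rises and falls of 3 and 4 without EM line 8, 4 and 3 without DM line 6 and 4 and 5 without DM line 7. Pax6, the eye and lacrimal gland factor that the labels of some clones name as knocked out, was 172, 197 and 149.7 CPM in EM against 178, 168 and 186 CPM in DM (log2 fold change 0.04 ± 0.10, adjusted p = 0.83, with a sign that turns under total-count scaling). Runx1 rose from 32.3, 34.9 and 36.3 to 73.3, 70.8 and 54.8 CPM (0.94 ± 0.16, adjusted p = 0.00123) and Sox9, of ducts and gland buds, from 60.9, 62.3 and 71.4 to 84.9, 104 and 83.7 CPM (0.49 ± 0.10, adjusted p = 0.00423). Trp63, the basal cell factor, was 73.4, 78.5 and 70.3 CPM in EM against 77.6, 77.1 and 67.4 CPM in DM (adjusted p = 1) while keratin genes of basal cells rose. Sox10, which marks lacrimal acini and myoepithelium in the gland, had no counts in any organoid library.

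Of 16 retinoid genes 7 rose and 1 fell, in every fit with 1 library left out except that 4 fell without DM line 8, while 2 fell with total-count scaling. Beside Aldh1a3, Rdh10, which makes retinal, rose from 11.3, 12.98 and 13.1 to 93.6, 88.6 and 37.5 CPM (log2 fold change 2.55 ± 0.29 SE, adjusted p = 0.0001), and Crabp2, which carries retinoic acid to the nucleus, from 10.3, 14.9 and 12.2 to 53.97, 72.9 and 46.8 CPM (2.21 ± 0.19, adjusted p = 2.08e-05). Cyp26b1, which breaks retinoic acid down and is itself a target of it, rose from 2.99, 2.41 and 1.61 to 15.02, 12.9 and 11.7 CPM (2.49 ± 0.32, adjusted p = 0.000233). The receptors Rara and Rarg did not pass the test, and Rarb, a target as well as a receptor, rose by 0.67 ± 0.15 (adjusted p = 0.00591).

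Over all genes tested 17.2% rose and 13.2% fell, the shares to read beside the list counts that follow. Of 18 p53 targets 3 rose and 7 fell. Rises and falls numbered 2 and 4 without EM line 7 or DM line 6 and 2 and 3 without DM line 7. Gdf15, a stress-induced secreted factor, fell from 38.9, 35.3 and 24.6 to 6.77, 5.23 and 10.5 CPM (log2 fold change -2.13 ± 0.26 SE, adjusted p = 0.000176), and Fas, a death receptor, rose from 4.899, 5.19 and 3.81 to 17.7, 16.4 and 13.2 CPM (1.76 ± 0.19, adjusted p = 8.02e-05). Of 16 YAP targets 4 rose and 4 fell. Axl, a receptor kinase, rose from 30.2, 21.6 and 17.8 to 114, 137 and 72.6 CPM (2.22 ± 0.24, adjusted p = 7.67e-05), while Amotl2, which binds and restrains YAP, fell from 96.8, 81.7 and 83.3 to 34.7, 36.6 and 38.4 CPM (-1.25 ± 0.10, adjusted p = 1.3e-05). Of 10 glucocorticoid response genes 5 fell and 2 rose. With 1 library left out the rises and falls were 0 and 5 without EM line 6 or DM line 7, 1 and 4 without EM line 7 and 1 and 5 without DM line 6. Cebpd fell from 41.3, 50.7 and 50.1 to 24.6, 19.2 and 29.4 CPM (-0.96 ± 0.16, adjusted p = 0.00119). On the balance of epithelial and mesenchymal genes, 2 of 12 rose and 3 fell. Leave-one-out counts of rises and falls were 2 and 1 without DM line 6. Epcam, an epithelial adhesion molecule, rose from 454, 435 and 523 to 908, 970.4 and 689 CPM (0.86 ± 0.13, adjusted p = 0.000553), Vim, the mesenchymal intermediate filament, from 7.76, 4.28 and 6.71 to 15.6, 15.8 and 22.98 CPM (1.54 ± 0.24, adjusted p = 0.000832), and Snai2, a repressor of epithelial genes, fell from 18.6, 18.3 and 16.1 to 10.8, 11.4 and 10.1 CPM (-0.71 ± 0.14, adjusted p = 0.00308). Of 18 tear protein genes tested 4 rose and 1 fell. Wfdc2 fell from 974, 1037 and 1028 to 464, 375 and 629.8 CPM (-1.05 ± 0.16, adjusted p = 0.000665), and Lpo, lactoperoxidase, rose only to 1.23, 1.54 and 1.82 CPM, against a gland mean of 4259 CPM.

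Markers of cell types other than epithelium were mostly at or near 0, and a few rose. Of 6 pericyte and smooth muscle markers tested Rgs5 and Abcc9 rose, the latter to at most 0.513 CPM and not without EM line 6, EM line 8, DM line 6 or DM line 7 (adjusted p up to 0.0803), while Pdgfrb had no count and Notch3, which epithelium also expresses, was 91.95, 98.1 and 114 CPM in EM against 66.7, 90.7 and 99.03 CPM in DM (adjusted p = 0.23). Foxj1, the master factor of motile cilia, rose from 0.125, 0.475 and 0.248 to 6.77, 7.65 and 2.77 CPM (log2 fold change 4.28 ± 0.51 SE, adjusted p = 0.000151). Cd74, the class II invariant chain, rose from 1.33, 0.548 and 0.704 to 4.61, 3.61 and 6.85 CPM (2.56 ± 0.31, adjusted p = 0.000152), and H2-Aa from no counts to 0.871, 0.423 and 0.515 CPM (at least 14.6-fold), whereas H2-Ab1 fell (-0.74 ± 0.18, adjusted p = 0.0118). The summed macrophage markers were 18.5 to 30.8 CPM in EM and 23.5 to 30.9 CPM in DM. Their part in the cytokine and matrix rises was not tested.

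The same change of medium had also been made in clones, which the tests above do not use, and their values are set beside those of the uncloned lines without a test of the difference. The clone libraries form a separate table, scaled on its own, with 2 clones per genotype label, and time in DM for the clones is stated differently in the sources. Pax6 counts do not check the labels, as the labelled Pax6-KO clones measured 172 and 272 CPM (EM) against 135 and 309 CPM (DM) and the WT clones 245 and 276 CPM (EM) against 219 and 279.7 CPM (DM). In WT clones 2247 of 14282 genes tested (15.7%) were called, 9.61% higher and 6.13% lower, and in labelled Pax6-KO clones 1193 (8.35%), 4.94% higher and 3.41% lower, numbers that became 3650 and 2338 with the clone as a block. Of 2229 genes that rose in uncloned organoids and were tested in clones, 93.9% had a higher DM level in WT clones and 91.7% in labelled Pax6-KO clones, with 43.7% and 26.0% called in that direction. Of 1740 that fell, 91.6% and 92.2% were lower, with 31.3% and 16.7% called. Over all 12482 genes tested in both, 74.5% and 75.6% had the same direction.

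Genes described above had these values in the clones. Inhba had a log2 fold change of 5.45 ± 0.23, adjusted p = 0.00039 in WT clones and of 2.87 ± 0.20, adjusted p = 0.0021 in labelled Pax6-KO clones. Axin2 had -1.17 ± 0.12, adjusted p = 0.0025 and -2.29 ± 0.12, adjusted p = 0.0016. Mylk had 4.27 ± 0.73, adjusted p = 0.0116 and 7.76 ± 1.06, adjusted p = 0.0108. For Csf2 the values were 10.52 ± 0.84, adjusted p = 0.00217 and 8.66 ± 0.70, adjusted p = 0.00429. All 4 genes were thus called in the same direction in each set. Interferon genes differed: 21 of 28 rose in WT clones and none was called in the labelled Pax6-KO clones. Of the 24 mitosis genes 5 fell in WT clones and 12 in labelled Pax6-KO clones, and Mki67 measured 84.1 and 53.4 CPM (EM) against 29.2 and 8.995 CPM (DM) in WT clones and 97.8 and 129.7 CPM (EM) against 18.4 and 20.03 CPM (DM) in labelled Pax6-KO clones. Aqp5 rose in WT clones (2.64 ± 0.42, adjusted p = 0.0097) and fell in labelled Pax6-KO clones (-2.78 ± 0.58, adjusted p = 0.0351). That fall was between low levels, given below, and rests on few reads.

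**Figure D5:**
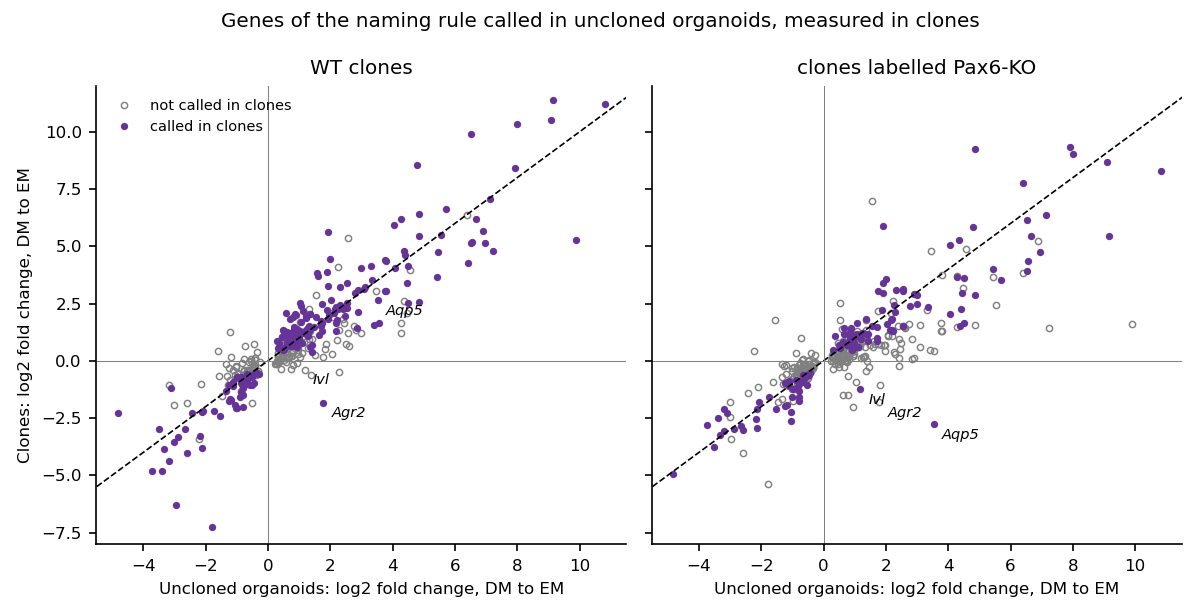
Log2 fold change of DM to EM in clones (vertical axis) against uncloned organoids (horizontal axis) for the 371 genes chosen by the naming rule, including some not described in the text, that were called in uncloned organoids and tested in clones, in WT clones (left) and labelled Pax6-KO clones (right); filled points are called in the clones and the dashed line marks equality. In WT clones 346 of 371 lie on the same side of 0 as in uncloned organoids and in labelled Pax6-KO clones 337, with Agr2, Aqp5 and Ivl among the exceptions.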

How the data were processed

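Poly(A) RNA of organoids taken out of BME was sequenced from stranded libraries, per the labels' protocols. Both deposited tables hold raw counts per Ensembl gene, 1 for the 9 libraries of lines 6 to 8 and 1 for the 8 clone libraries. Reads were aligned with STAR to GRCm38 and counted with featureCounts, per the submitters' processing notes, with versions, settings and annotation not given in the sources used here. Gene names and coordinates are from GENCODE M21 (GRCm38) and matched 36345 of 38293 IDs in the first table, and counts without a name made up 0.313% of the total. Promoters are from RefSeq (GRCm38.p6).

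Each table was fitted with edgeR 4.0.16 (R 4.3.3): TMM scaling, filterByExpr, a mean per group without a block, the quasi-likelihood test and Benjamini-Hochberg adjustment, with calls at an adjusted p under 0.05. The first fit held all libraries of its table, so the gland libraries also fed its scaling, filter and dispersion. It had 6 residual degrees of freedom. When only the organoid libraries compared were fitted, 4276 of 13029 genes were called, 2334 higher in DM and 1942 lower. CPM use TMM-scaled totals, and errors are standard errors of the log2 fold change. Deviations of EM and DM libraries of the same line were weakly correlated (0.203, 0.126 and 0.114, against -0.174 to 0.0095 between lines). With only 3 lines these values are no test of pairing. The titles carry the line number, so the line was used as a block in an alternative. On simulated counts with changes of known size in 200 genes the procedure recovered 96 of 100 changes of 2-fold and 100 of 100 of 4-fold. The simulation gave every gene the same dispersion, changed no gene of low count and held no outlying library such as DM of line 8. It therefore does not measure recovery in the real libraries. Alternatives were DESeq2 1.42.0, its size factors, total-count scaling, no filter, fewer libraries in the fit, the block, and each library left out. Named genes are the 12 largest rises and 12 largest falls of at least 10 CPM that do not overlap, the 5 most abundant each way, the 8 of widest range in DM, and per list role the 5 of smallest p and the 3 of highest CPM. Members and lists were chosen with earlier results of these data known. Some genes that this rule names are not reported here.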

Additional observations from a re-analysis of the deposited data

Results flagged for a closer look

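In 3 genes the move from EM to DM was called in opposite directions in uncloned organoids and in a set of clones, and the difference itself was not tested. Agr2, a disulphide isomerase of mucus-secreting cells, rose in uncloned organoids, from 0.83, 1.43 and 0.662 to 2.31, 2.38 and 5.43 CPM (log2 fold change 1.78 ± 0.38, adjusted p = 0.00517), and fell in WT clones (-1.82 ± 0.45, adjusted p = 0.0361), at 2.498 and 1.31 CPM (EM) against 0.503 and 0.569 CPM (DM). Aqp5, the water channel of acinar cells, rose in uncloned organoids (3.53 ± 0.14, adjusted p = 4.88e-07) and fell in labelled Pax6-KO clones (-2.78 ± 0.58, adjusted p = 0.0351), at 1.06 and 1.51 CPM (EM) against 0.308 and 0.0531 CPM (DM). Ivl, which encodes involucrin of the cornified envelope, rose in uncloned organoids, from 2.57, 2.71 and 2.73 to 6.36, 8.15 and 3.64 CPM (1.18 ± 0.30, adjusted p = 0.0159), a call lost without EM line 6, EM line 7, EM line 8, DM line 6 or DM line 7 (adjusted p up to 0.0608), and fell in labelled Pax6-KO clones (-1.23 ± 0.29, adjusted p = 0.0498), at 47.8 and 52.2 CPM (EM) against 15.3 and 27.3 CPM (DM). The clone values are of 2 clones per label from a separately scaled table. Those of Aqp5 in DM of labelled Pax6-KO clones rest on few reads.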

How the results depend on the processing

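Of 219 genes named in the text by the naming rule, 188 were called in uncloned organoids, and 172 of these kept their call in every alternative run, with the other 16 losing it in at least 1. The calls of uncloned organoids numbered 4205 with the line as a replicate block (2320 higher, 1885 lower), the block ended or gave no call of a named gene beyond those printed beside it, and outside the mitosis and replication lists it moved the rises or falls of a whole list by at most 2. Calls lower in DM ranged from 1039 to 2581 with 1 library left out. In WT clones the calls numbered 3497 with no filter on low counts (2110 higher and 1387 lower), 924 when only their 4 libraries were fitted (662 and 262), 3650 with the clone as a replicate block (2122 and 1528), and 789 to 1956 with 1 library left out (582 to 1199 higher, 207 to 757 lower). In labelled Pax6-KO clones they numbered 1979 by DESeq2 (1137 and 842), 2572 with no filter (1451 and 1121), 2338 with the clone as a replicate block (1321 and 1017), and 82 to 284 with 1 library left out (62 to 208 higher, 20 to 76 lower). A fit left with a single library in an arm assumes that it varies like the other groups. Differences between lines shared by both media were called for 51 genes with no filter. The causes were not tested. Lines number 3 and clones 2 per label. Genes with a few counts per library have levels set by few reads, so their fold changes carry wide error. Examples are Col1a1, H2-Aa, Abcc9 and Dmbt1, and Aqp5 in labelled Pax6-KO clones.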
